A study of Homo sapiens with 2 samples.

Results

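The pro-apoptotic members of the BCL2 family were examined in H1299 cells with and without p53. They comprised 10 genes, chosen by name among the 18417 genes measured, with earlier results of these data known. These were the effectors BAX, BAK1 and BOK, and the 7 BH3-only genes BBC3, PMAIP1, BID, BIK, BAD, BMF and BCL2L11. H1299 cells come from a human lung carcinoma (non-small cell) and make no p53 of their own. p53 is a transcription factor that answers DNA damage and other stress. The data are 1 array of H1299 cells with p53 and 1 array of H1299 cells of a negative control, each of total RNA and each with 33297 probe sets. Both groups are of the same line and carry no other labelled allele or agent. The sources used here do not give the route by which p53 was introduced, the time and dose, or the nature of the negative control. All values are log2 intensities, and each difference is the value with p53 minus that in the negative control. There are no replicates, so no difference carries a p-value or an error, and each describes these 2 arrays.

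The BCL2 family decides whether the outer membrane of mitochondria stays intact. The effectors BAX and BAK1 form pores in that membrane, through which cytochrome c leaves to build the apoptosome and activate caspases. Anti-apoptotic members such as BCL2, BCL2L1 (BCL-xL) and MCL1 hold the effectors in check, and the BH3-only proteins either occupy these guardians or activate the effectors directly. BAX, BBC3 (PUMA) and PMAIP1 (NOXA) are known as transcriptional targets of p53.

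The family was set in context by its promoters, which are shown because 5 members reached a 2-fold higher level with p53 and others did not. Windows of 250 bases before the transcription start were taken from RefSeq (GRCh38.p14) and matched by symbol, which gave 15 windows for 9 members and none for BIK. Those of the higher members with 1 window each, and of BBC3 as a known p53 target that was less than 2-fold higher, are printed 5′ to 3′ on the strand of the gene. The window of BAK1 is chr6:33580277-33580526 (minus strand), that of BAX chr19:48954625-48954874 (plus strand), that of BCL2L11 chr2:111120664-111120913 (plus strand), that of PMAIP1 chr18:59899746-59899995 (plus strand) and that of BBC3 chr19:47232668-47232917 (minus strand). Capitals mark matches to the motifs named in the next paragraph.
BAK1: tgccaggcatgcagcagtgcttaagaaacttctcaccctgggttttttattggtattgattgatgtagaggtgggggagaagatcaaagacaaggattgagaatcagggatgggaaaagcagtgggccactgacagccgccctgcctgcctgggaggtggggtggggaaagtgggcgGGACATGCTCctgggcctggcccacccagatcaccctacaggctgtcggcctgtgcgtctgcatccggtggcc
BAX: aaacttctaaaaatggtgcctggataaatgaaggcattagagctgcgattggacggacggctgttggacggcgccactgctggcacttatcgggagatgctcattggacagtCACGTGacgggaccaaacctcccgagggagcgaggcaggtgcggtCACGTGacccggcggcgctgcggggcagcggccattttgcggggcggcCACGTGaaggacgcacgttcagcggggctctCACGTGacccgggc
BCL2L11: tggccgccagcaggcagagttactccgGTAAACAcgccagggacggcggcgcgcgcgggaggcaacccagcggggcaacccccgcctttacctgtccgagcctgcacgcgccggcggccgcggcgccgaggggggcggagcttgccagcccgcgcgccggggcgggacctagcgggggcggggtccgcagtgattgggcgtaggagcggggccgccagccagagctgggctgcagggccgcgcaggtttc
PMAIP1: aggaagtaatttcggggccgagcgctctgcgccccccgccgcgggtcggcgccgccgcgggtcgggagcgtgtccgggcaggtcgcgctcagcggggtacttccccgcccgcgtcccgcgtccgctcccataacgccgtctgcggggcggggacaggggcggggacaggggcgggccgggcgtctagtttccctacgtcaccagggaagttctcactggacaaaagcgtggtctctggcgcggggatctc
BBC3: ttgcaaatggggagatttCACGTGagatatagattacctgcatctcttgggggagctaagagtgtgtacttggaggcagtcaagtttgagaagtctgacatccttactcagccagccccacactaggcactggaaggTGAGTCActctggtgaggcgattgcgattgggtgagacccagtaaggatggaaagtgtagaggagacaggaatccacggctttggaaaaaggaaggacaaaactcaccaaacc

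Motifs of factors known to act on these genes were searched on both strands: the decamer of the p53 response element, the E-box CACGTG of MYC and related factors, the forkhead motif GTAAACA, the motif TGATGNAA of ATF4 with CHOP, the motif TTTNGCGC of E2F factors and the AP-1 motif TGANTCA. BAK1 held 1 p53 decamer, GGACATGCTC, at 73 to 64 bases before the start. The search was for single decamers, each of them only a part of a p53 response element. Such a decamer was present in 5.57% of the 35116 windows of 27305 genes in the same table. BAX held 4 copies of CACGTG, the first at 138 and the last at 14 bases before the start. One copy or more was present in 6.34% of all windows, and 4 or more in 5 windows (0.0142%), each of a different gene. The cut of 4 equals the count in BAX, whose window is among these 5, so the share is no test. BCL2L11 held GTAAACA at 223 bases before the start, a motif present in 2.98% of windows. BBC3 held CACGTG at 232 bases before the start and the AP-1 match TGAGTCA at 113. The AP-1 motif was present in 6.57% of windows. BID had 5 windows, some of them overlapping, of which 2 held CACGTG, both the same 1 site in the genome. The windows of PMAIP1, BOK, BAD and BMF held none of these letters. TGATGNAA (3.14% of windows) and TTTNGCGC (1.51%) were in no window of a member. No match to one motif overlapped a match to another. Sites further away or inside the genes were not searched, and a match describes letters only.

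**Figure D1:**
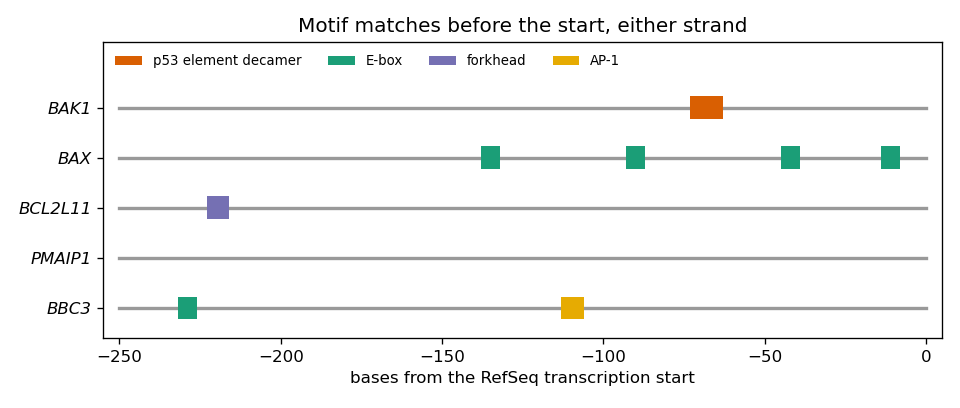
Positions of motif matches on either strand in the 250 bases before the RefSeq start (x axis, bases from the start at 0) of BAK1, BAX, BCL2L11, PMAIP1 and BBC3, with 1 line per gene and coloured blocks for the motifs. BAX shows 4 E-boxes, BAK1 a single p53 decamer, and PMAIP1 no block.

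Each of the 10 members was read by 1 probe set of its own, and no probe set with several gene symbols held a member. The array level had the same median in both arrays, 7.38, which served as the filter level. Genes known to be induced by p53 were higher in the array labelled p53. CDKN1A, which encodes the cell cycle inhibitor p21, was 11.2-fold higher with p53, with a level of 12.66 against 9.18 in the negative control. MDM2, the ubiquitin ligase of p53, was 6.55-fold higher, with 13.59 in the p53 array against 10.87 in the negative control. Genes known for steady levels had differences of -0.06 (GAPDH), -0.09 (ACTB), -0.48 (TBP) and -0.58 (HPRT1). Of the cell type markers, the keratin genes KRT8 (12.84 with p53 and 12.52 in the control) and KRT18 (12.47 with p53 and 12.78 in the control) and the vimentin gene VIM (12.92 with p53 and 13.07 in the control) were bright. The epithelial markers KRT19, EPCAM and CDH1 lay below the filter level in both arrays, as did PTPRC, CD3E, PECAM1, CDH5 and ALB of other cell types. CD68 had a level of 11.01 with p53 and 11.40 in the negative control. FN1 was at 8.92 with p53 and 8.69 in the control, and APOA1 at 7.76 in both.

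Of the 10 members, 5 were at least 2-fold higher with p53 (50%), none was at least 2-fold lower, and 5 were neither. The 5 higher members were the BH3-only genes BCL2L11, PMAIP1 and BID and the effectors BAK1 and BAX. Over all 18417 genes, 5.22% were at least 2-fold higher and 3.7% at least 2-fold lower. As the members were chosen with earlier results of these data known, this contrast is a description and not a test. Over the 11436 genes whose higher array reached the filter level, 8.21% were at least 2-fold higher and 5.79% at least 2-fold lower. At 1.5-fold, 6 members were higher and none lower, against 9.4% and 10.1% of all genes, and at 3-fold 3 members were higher and none lower, against 2.47% and 0.956% of all genes. The median difference of the members was 0.98, that of all genes 0.00 and that of the filtered genes -0.01. In sign, 8 members lay above 0, 1 (BOK) below and 1 (BMF) was equal in both arrays. Of all genes, 26.9% lay above 0 and 35.3% were equal, and of the filtered genes 34.8% lay above 0 and 14.6% were equal. The filter was passed by 9 members, 8 of them in both arrays. BIK passed through the p53 array alone, and BMF lay below it in both.

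**Figure D2:**
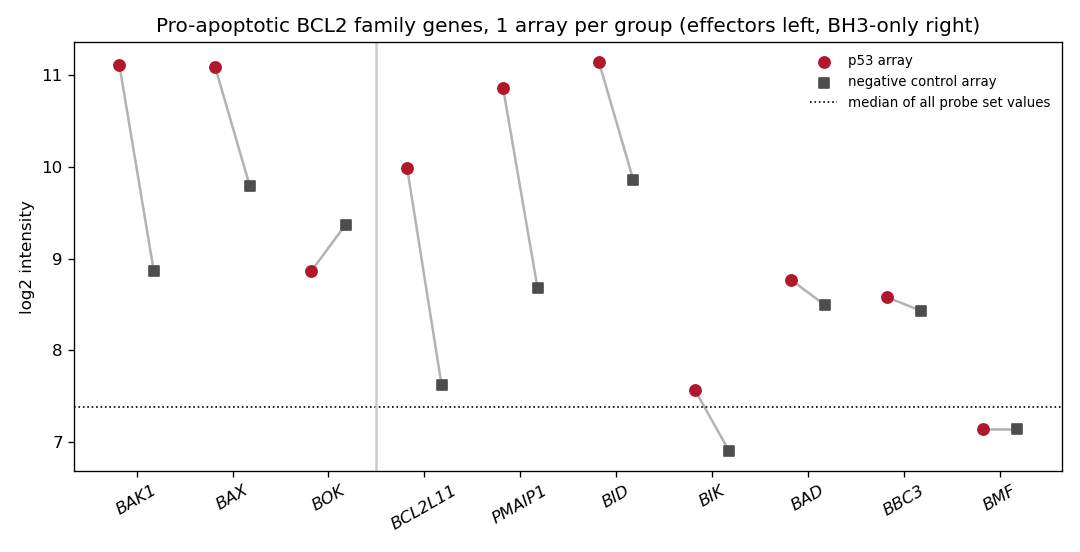
Log2 intensity (y axis) of each member in the p53 array (circles, left) and the negative control array (squares, right), with effectors to the left of the vertical line and BH3-only genes to its right. The steepest lines are those of BAK1, BCL2L11 and PMAIP1, BOK alone slopes the other way, and BMF lies below the dotted filter level of 7.38 in both arrays.

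Among the effectors, BAK1 and BAX were higher with p53 and BOK was not. BAK1, which sits in the outer mitochondrial membrane of healthy cells, had a level of 11.11 with p53 and 8.86 in the negative control, a difference of 2.25 or 4.74-fold. BAX, which moves from the cytosol to mitochondria during apoptosis, had a level of 11.08 with p53 and 9.79 in the negative control, a difference of 1.29 or 2.44-fold. BAK1 thus differed more between the arrays than BAX. BAK1 held rank 182 of 18417 genes from the highest difference and BAX rank 654, and 1.59% and 5.62% of the filtered genes had a difference as large. BOK, a relative of both that can form pores without them, had a level of 8.86 with p53 and 9.37 in the negative control, a difference of -0.51. That is 1.43-fold lower, less than the 2-fold taken as a call, and 18.3% of the filtered genes lay as low.

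The BH3-only genes split into 3 that were at least 2-fold higher and 4 that were not. BCL2L11 (BIM), an activator that binds all the main anti-apoptotic members, had the largest difference of the 10 genes. Its level was 9.99 with p53 and 7.62 in the negative control, 2.37 apart or 5.17-fold. PMAIP1, whose product NOXA binds mainly MCL1, had a level of 10.86 with p53 and 8.68 in the negative control, 2.19 apart or 4.55-fold. BID, which caspase 8 cleaves to link death receptors to mitochondria, had a level of 11.14 with p53 and 9.85 in the negative control, 1.29 apart or 2.45-fold. BCL2L11 and PMAIP1 held ranks 147 and 194 of all genes, close to BAK1, while BID at rank 649 lay beside BAX. The family members past 2-fold therefore lay at differences of 2.19 to 2.37 (BCL2L11, BAK1 and PMAIP1) and at 1.29 (BID and BAX), with none between.

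The other 4 BH3-only genes were less than 2-fold apart. BBC3, whose product PUMA binds all the main anti-apoptotic members and which is among the best known p53 targets, had a level of 8.58 with p53 and 8.43 in the negative control, a difference of 0.15 or 1.11-fold. Of the filtered genes, 26.4% had a difference as large, so BBC3 stood inside the bulk of the array. BIK, whose product sits mainly at the endoplasmic reticulum, had a level of 7.57 with p53 and 6.90 in the negative control, a difference of 0.67, the nearest to the 2-fold line from below. BAD, a sensitizer that growth factor kinases phosphorylate and 14-3-3 proteins then retain, had a level of 8.77 with p53 and 8.49 in the negative control, a difference of 0.28. BMF, which the dynein light chain holds at the cytoskeleton, was listed at 7.14 in both arrays. Exactly equal values occurred in 35.9% of all probe sets, and the sources used here do not give the step that made them.

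Whether effectors and BH3-only genes differed depended on the summary. The median difference was 1.29 over the 3 effectors and 0.67 over the 7 BH3-only genes, 0.61 apart before rounding. The 0.67 is the value of BIK itself, which reached the filter level through the p53 array alone. Over the BH3-only genes at the filter level on the higher array, which leaves out BMF, the median was 0.98. Reading the filter on the mean of both arrays, a choice made after seeing the data, leaves out BIK as well. The median was then 1.29, the same as that of the effectors, which follows from the members left out. The means were 1.01 over the effectors and 0.99 over the BH3-only genes. The effectors ran from -0.51 (BOK) to 2.25 (BAK1) and the BH3-only genes from 0.00 (BMF) to 2.37 (BCL2L11), so the ranges overlapped over most of their width. At least 2-fold higher were 2 of 3 effectors and 3 of 7 BH3-only genes.

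**Figure D3:**
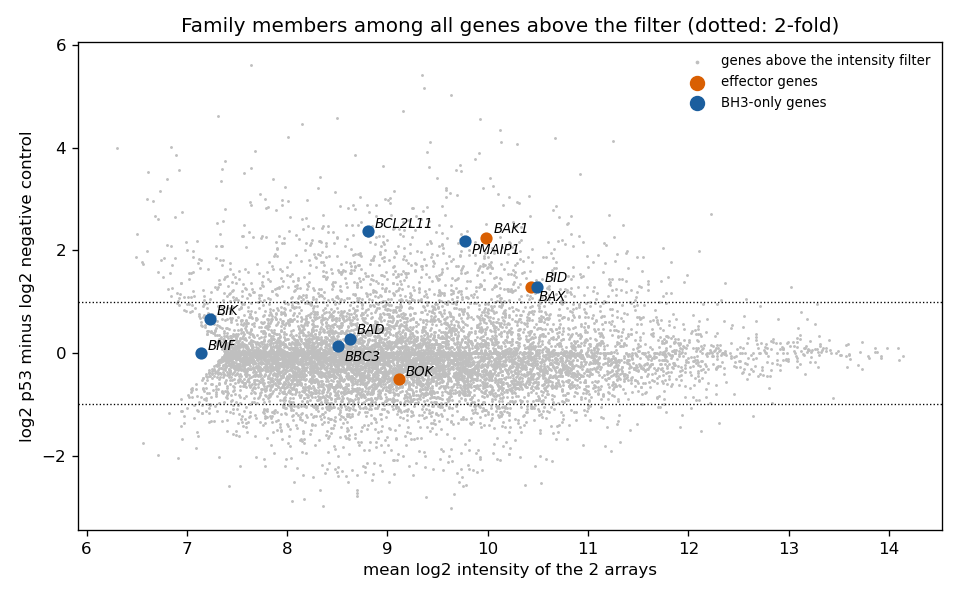
Difference of log2 intensity, p53 minus negative control (y axis), against the mean log2 intensity of the 2 arrays (x axis), for the 11436 filtered genes in grey, the effectors in orange and the BH3-only genes in blue. BAX and BID lie side by side just above the dotted 2-fold line, BAK1, PMAIP1 and BCL2L11 lie above 2, and BBC3, BAD and BOK lie within the grey cloud. BMF, below the filter, is drawn at 0.

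The anti-apoptotic members that bind these proteins differed little between the arrays. Of 5 measured anti-apoptotic genes none was 2-fold higher or lower, with a median of 0.00 and a range of -0.14 to 0.14. Over so few genes these counts are near the 5.22% higher and 3.7% lower among all genes. BCL2L1 had a level of 11.54 with p53 and 11.43 in the negative control, and MCL1 was at 11.40 with p53 and 11.26 in the control. BCL2 (-0.09), BCL2A1 (equal in both arrays) and BCL2L10 (-0.14) lay below the filter level in both arrays, so their differences tell little. Set against MCL1, its main partner, PMAIP1 differed by 2.04 more on the log2 scale. BAK1, which MCL1 and BCL2L1 hold in check, differed by 2.10 more than MCL1 and by 2.14 more than BCL2L1. BAD, which binds BCL2 and BCL2L1 and not MCL1, differed by 0.17 more than BCL2L1.

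Among 8 other BCL2-related genes none was 2-fold higher or lower, with a median of -0.01. These counts too are near the 5.22% higher and 3.7% lower among all genes. MOAP1, an activator of BAX, stood highest at 0.69 (9.20 with p53 and 8.50 in the control), and BCL2L12 lowest at -0.49. HRK, a further BH3-only gene known mainly from neurons, had a level of 9.65 with p53 and 9.84 in the negative control. The mitophagy genes BNIP3 (0.02) and BNIP3L (-0.02) were nearly level.

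Downstream of the pores, 2 of 7 measured genes of the apoptosome and caspases were at least 2-fold higher. This stands against 5.22% of all genes and 8.21% of the filtered genes, and all 7 passed the filter. None was at least 2-fold lower, against 3.7% of all genes and 5.79% of the filtered genes, and the list median was -0.21. APAF1, the scaffold onto which cytochrome c assembles the apoptosome, had a level of 11.51 with p53 and 7.96 in the negative control. It was 11.7-fold higher, a difference larger than that of any member of the family. CASP6, an executioner caspase, had a level of 10.10 with p53 and 7.22 in the negative control. The control value lay below the filter level, so its fold of 7.37 is approximate. CYCS, which encodes cytochrome c, had a difference of -0.43, CASP9, the caspase of the apoptosome, -0.34, and CASP8, which cleaves BID, -0.21. DIABLO (-0.09) and HTRA2 (-0.61), which leave mitochondria with cytochrome c and bind inhibitors of caspases, lay below 0 as well. Of the filtered genes, 50.6% lay below 0, so such a sign is common.

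Of 12 genes whose products bind members or their membrane, 1 reached 2-fold lower and 0 reached 2-fold higher, counts near the 5.79% lower and 8.21% higher among all filtered genes. The median was -0.11. The lower one was YWHAH, a 14-3-3 gene, at 10.07 with p53 and 11.41 in the control, 2.52-fold lower. The other 14-3-3 genes in this list lay between -0.27 (YWHAZ) and -0.03 (YWHAG), and 14-3-3 genes outside the list were not read. The dynein light chain gene DYNLL1, whose product holds BCL2L11 and BMF proteins, was equal in both arrays at 12.34, and DYNLL2 had a difference of 0.56. MTCH2, the mitochondrial receptor of cleaved BID, had a difference of -0.20. VDAC2, the channel that binds BAK1, was equal in both arrays at 12.53, and VDAC3 stood at 0.63.

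Of 9 measured genes for transcription factors known to act on BH3-only genes, 1 was at least 2-fold higher and 1 lower, with a median of -0.04. These counts are near the 8.21% higher and 5.79% lower among all filtered genes. DDIT3, which encodes CHOP and is known to act on BCL2L11, was 3.74-fold higher at 10.68 with p53 against 8.77 in the control. MYC was 3.13-fold lower at 9.27 with p53 against 10.91 in the control. E2F1 stood at -0.98, just short of 2-fold, JUN at -0.73 and ATF4 at -0.41. The forkhead genes FOXO1 (0.16), FOXO3 (equal in both arrays) and FOXO4 (-0.04) and the p53 relative TP73 (0.00) were near level. These are transcript values and do not tell the activity of the factors, and their part in the members' differences was not tested.

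**Figure D4:**
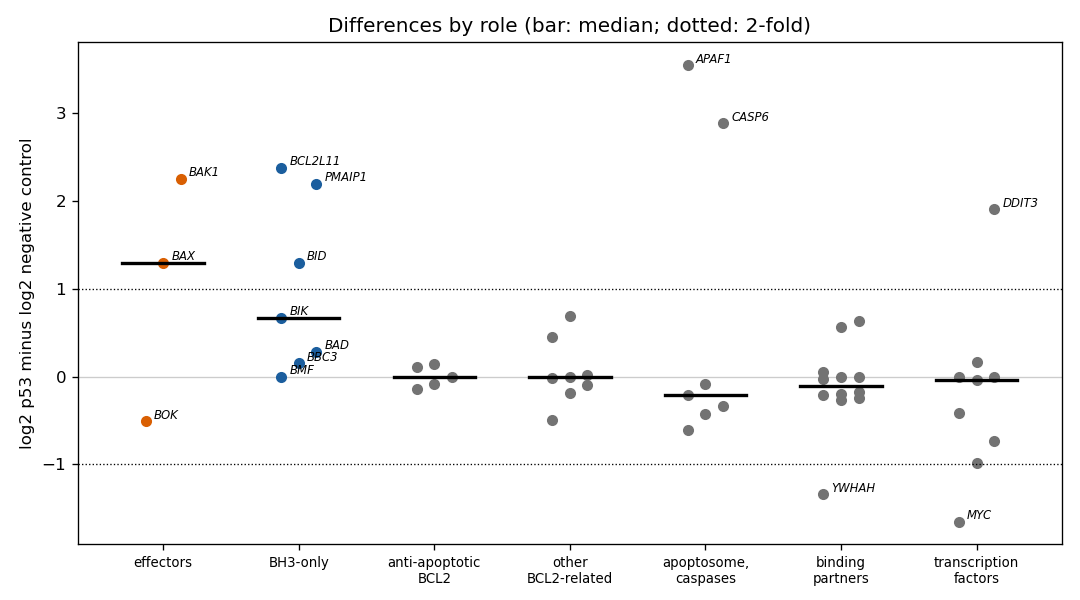
Difference of log2 intensity, p53 minus negative control (y axis), for effectors (orange), BH3-only genes (blue) and 5 lists of related genes (grey), with 1 point per gene, a bar at each median and dotted lines at 2-fold. The members reach 2.37, the anti-apoptotic genes stay within 0.14 of 0, and APAF1 and CASP6 stand above all members.

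The genes beside the members on the chromosome were read in a comparison added after the values were seen. The nearest protein-coding gene with a value on each side was taken in the RefSeq order, 10 neighbours for the 5 higher members. None of these 10 was at least 2-fold higher, a count near the 5.22% of all genes, and the highest difference was 0.51. DHDH, CCBE1, MC4R and ACOXL among them lay below the filter level in both arrays, so their differences tell little. FTL, next to BAX, had a difference of -0.03, ITPR3, next to BAK1, -0.44, CCBE1, next to PMAIP1, 0.11, and MICAL3, next to BID, 0.51. ANAPC1, on one side of BCL2L11, was the 1 neighbour at least 2-fold lower, at 8.57 with p53 and 9.57 in the control. Among the 10 neighbours of the other members none was 2-fold higher and BUB1B, a mitotic checkpoint gene beside BMF, was 4.95-fold lower. Of all genes, 3.7% were at least 2-fold lower.

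A probe set reads all transcripts that share its probes. That of BCL2L11 was annotated with 17 RefSeq mRNAs, that of BAX with 8, that of BID with 7, those of BBC3 and BMF with 4 each, that of BAD with 2, and those of BAK1, BOK, PMAIP1 and BIK with 1 each. The splice forms of BCL2L11, which differ in how strongly they kill, cannot be told apart in these values.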

How the data were processed

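Total RNA of H1299 cells was put on 1 Affymetrix array per group after biotin labelling, per the labels' protocols. The authors deposited 1 log2 intensity per probe set and array, summarised with RMA (robust multi-array average), per the submitters' processing notes. No source used here gives the software version, the probe set definition or the genome build. The log2 scale was read from the values, 1.48 to 14.68 with p53 and 1.41 to 14.68 in the control. The sorted columns differed by at most 0.192, so a shift of total RNA per cell cannot be read. The number of arrays limits the precision.

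Names of probe sets came from GEO's platform annotation, with symbols updated through the gene identifier to RefSeq, and 19460 of 33297 had 1 symbol. Of several probe sets for a gene the one with the highest mean was used. The filter level was the median of all values, 7.38, read on the higher array. A call was a difference of at least 2-fold, which is a size rule, not a test. Each gene of the family was named, and of each related list the members past 2-fold, or the 2 with the largest absolute difference where fewer than 2 were. Further names in the text were chosen after their values were seen. The members and lists were chosen with earlier results of these data known. List members without a single-symbol probe set, and the gene of p53 itself, are not analysed here. No likeness of pattern was computed, as 2 arrays allow none. The calculation was tested on simulated data with differences far larger than the noise, which checks the code and not the calls made here. Alternatives were the mean over probe sets, centring, a lowess trend removed (span 0.3), quantile normalization, an offset of 32, a floor at the 25th percentile (5.97), other thresholds and filters. Python 3.11.15, numpy 2.4.6, pandas 2.3.3, statsmodels 0.14.6 and matplotlib 3.10.9 were used.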

Additional observations from a re-analysis of the deposited data

How the results depend on the processing

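Each member's difference was recomputed under 6 alternatives, and none of the 60 values crossed 2-fold or turned round in sign, with BMF staying within 0.01 of 0. The mean over probe sets and the floor could change no member, nor the count of calls. Each member had 1 probe set, and every member level lay above the floor of 5.97. With no replicates, a shift above 0.13 was counted as a move. This is a robust estimate of a standard deviation, scaled from the median absolute deviation of a gap. The gap is that between the 2 probe sets of each of 310 genes above the filter on the same arrays. Pairs with identical values were left out, and the estimate does not follow the largest gaps. BCL2L11 moved, to 2.20 with an offset of 32 before log2. The count of members at least 2-fold higher stayed at 5 under these 6 alternatives, was 6 at 1.5-fold, and was 3 at 3-fold. The median of the BH3-only genes was 0.98 over members at the filter level, which BIK reached through the p53 array alone, 0.98 without the member equal in both arrays, and 1.29 with the filter read on the mean of both arrays, a choice made after seeing the data. Means gave 1.01 for the effectors and 0.99 for the BH3-only genes. These shifts follow by construction from the members entered or the summary used. At 1.5-fold the related lists had 1 higher BCL2-related gene, 1 lower apoptosome gene, 1 higher binding partner and 3 lower transcription factors. The threshold is less strict, and 9.4% of all genes were as high and 10.1% as low. No paired analysis was possible because each group has 1 array.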
